A study of Mus musculus with 3 samples.

Results

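The family of miR-15, miR-16, miR-195 and miR-497 is a group of microRNAs (miRNAs) made from 6 hairpins at 3 genomic loci. Its members here were all listed arms of miR-15a, miR-15b, miR-16, miR-195 and miR-497, which gave 11 of the 693 miRNAs in the files: 5 guide (5p) arms and 6 arms from the 3p side. Short RNA was sequenced from mouse TAG1 embryonic stem (ES) cells in 3 conditions with 1 library each. Control cells were untreated, SB cells received 30 µM SB-431542 (spelled SB-431541 in the labels) over 16 hrs, and Dox cells received the same SB treatment and then 1 µg/µl doxycycline over 12 hrs. All 3 libraries came from the same inducible line, in which doxycycline switches on Alk4*, an always active form of the Alk4 receptor. The inhibitor SB blocks the phosphorylation of Smad2/3 by this class of receptor, so the comparisons ask how each miRNA stands with Smad2/3 signaling off and then on. Control cells were grown with foetal bovine serum and both treated cultures with Knockout Serum Replacement, so treatment and medium cannot be told apart in any comparison with the Control library. Dox cells also differed from SB cells by doxycycline itself and by the further 12 hrs. In Dox over SB these cannot be told apart from signaling. The paper tested doxycycline in the parental line without the receptor for selected miRNAs, none of them of this family.

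A miRNA hairpin is cut by Drosha and then by Dicer into a duplex, and as a rule 1 arm, the guide, is loaded into Argonaute while the other is degraded. The guide finds its target mRNAs mainly through its seed, bases 2 to 8, so miRNAs with the same seed share many targets. This family is known for repressing cell cycle genes such as cyclins, as well as the survival gene Bcl2, and in frog embryos miR-15 and miR-16 repress a receptor of the Nodal ligands that signal through Smad2/3.

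The sequences of the 5 guide arms are shown because they share the same seed, which is why their levels are also given as a sum, while they differ enough elsewhere to be counted apart. They are mature sequences from RefSeq on GRCm38.p6, with the seed in capitals, and all 11 members were matched to that table, where miR-195 and miR-497 are named miR-195a and miR-497a.
miR-15a-5p: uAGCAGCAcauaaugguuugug
miR-16-5p: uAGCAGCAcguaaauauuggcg
miR-15b-5p: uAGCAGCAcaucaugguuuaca
miR-195-5p: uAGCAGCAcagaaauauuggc
miR-497-5p: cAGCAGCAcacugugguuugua
Counting from 1 at the 5′ end, miR-195-5p differed from miR-16-5p at 2 of 21 positions (G10A and U11G, with the base of miR-16-5p first). Between miR-15a-5p and miR-15b-5p, 4 of 22 positions differed (A12C, G20A, U21C and G22A, with the base of miR-15a-5p first), and all 4 lay outside the seed. The longest stretch that any member shared with another member was 11 bases, and the longest shared with any other mature mouse miRNA was 16 bases. The authors kept only reads longer than 16 bases and required perfect matches, so no kept read that lies within a mature sequence could match a pair of these members.

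The 6 arms from the 3p side had 6 different seeds, and they are shown because several of them moved differently from the guide of the same hairpin.
miR-15a-3p: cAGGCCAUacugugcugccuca
miR-16-1-3p: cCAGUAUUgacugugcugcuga
miR-15b-3p: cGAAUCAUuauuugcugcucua
miR-16-2-3p: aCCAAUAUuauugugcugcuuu
miR-195-3p: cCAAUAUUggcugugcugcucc
miR-497-3p: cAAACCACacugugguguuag

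The family lies on 3 chromosomes. miR-15a-5p was placed on the minus strand at chr14:61632075-61632096, in an intron of the non-coding gene Dleu2, and the neighbouring Mir16-1 hairpin overlapped an exon of Dleu2. miR-15b-5p was placed on the plus strand at chr3:69009775-69009796, and its hairpin and that of Mir16-2 both lay in introns of Smc4, which encodes a condensin subunit. The mature miR-16-5p is the same from both copies, at chr14:61631936-61631957 and chr3:69009918-69009939, so its reads cannot be divided between the loci, whereas miR-16-1-3p and miR-16-2-3p each mark 1 of them. miR-497-5p, at chr11:70234730-70234751 on the plus strand, and miR-195-5p, at chr11:70235062-70235082 on the same strand, formed the remaining locus. No gene contained the Mir195a hairpin, and the Mir497 hairpin overlapped the antisense miRNA gene Mir497b.

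The levels are in rpm, the reads of a miRNA per 1000000 reads of the library as scaled by the authors. The value of 1 read implied scaling totals between 9895513 and 11354692 reads. Reads on listed miRNAs made up 28.3% of this implied total in Control, 24.1% in SB and 33.4% in Dox, and the median log2 ratio of all listed miRNAs was −0.19 for SB over Control, 0.38 for Dox over SB and 0.19 for Dox over Control. Ratios are therefore also given relative to these medians. All intervals are 95% exact intervals and cover counting error only, since no condition had a replicate. A miRNA was called higher or lower by a criterion with the thresholds of the study, applied here to each comparison alone. It was a 1.25-fold or larger difference together with a Z-score on the reads past 1.96 in either direction, which compares libraries and not conditions. The study itself required a lower level in SB over Control together with a higher level in Dox over SB. The 9 ES cell miRNAs chosen as markers were all listed, with a summed level between 56410 and 78480 rpm.

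With the authors' scaling, the summed level of the 5 guide arms was nearly level between Control and SB while its makeup changed (see the plots of levels and of shares). The guides together had 545 rpm in Control, 551 rpm in SB and 468 rpm in Dox. The log2 ratio of this sum was 0.02 (−0.03 to 0.07) for SB over Control and −0.24 (−0.29 to −0.18) for Dox over SB, neither of which passed the criterion. The direction of the sum in SB over Control turned with the scaling, from −0.23 with miR-26a-5p to 0.25 with reads on listed miRNAs. Under 3 of the 4 other scalings the sum was called lower in Dox over SB, with −0.71 to −0.59. The scaling to reads on listed miRNAs can also be given as a share of those reads, which is not a separate measure. The guides held 0.192% (0.188 to 0.197) in Control, 0.229% (0.223 to 0.234) in SB and 0.14% (0.136 to 0.144) in Dox. This share was highest in SB and lowest in Dox, with intervals that did not overlap, but scaling to miR-26a-5p put SB below Control.

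**Figure D1:**
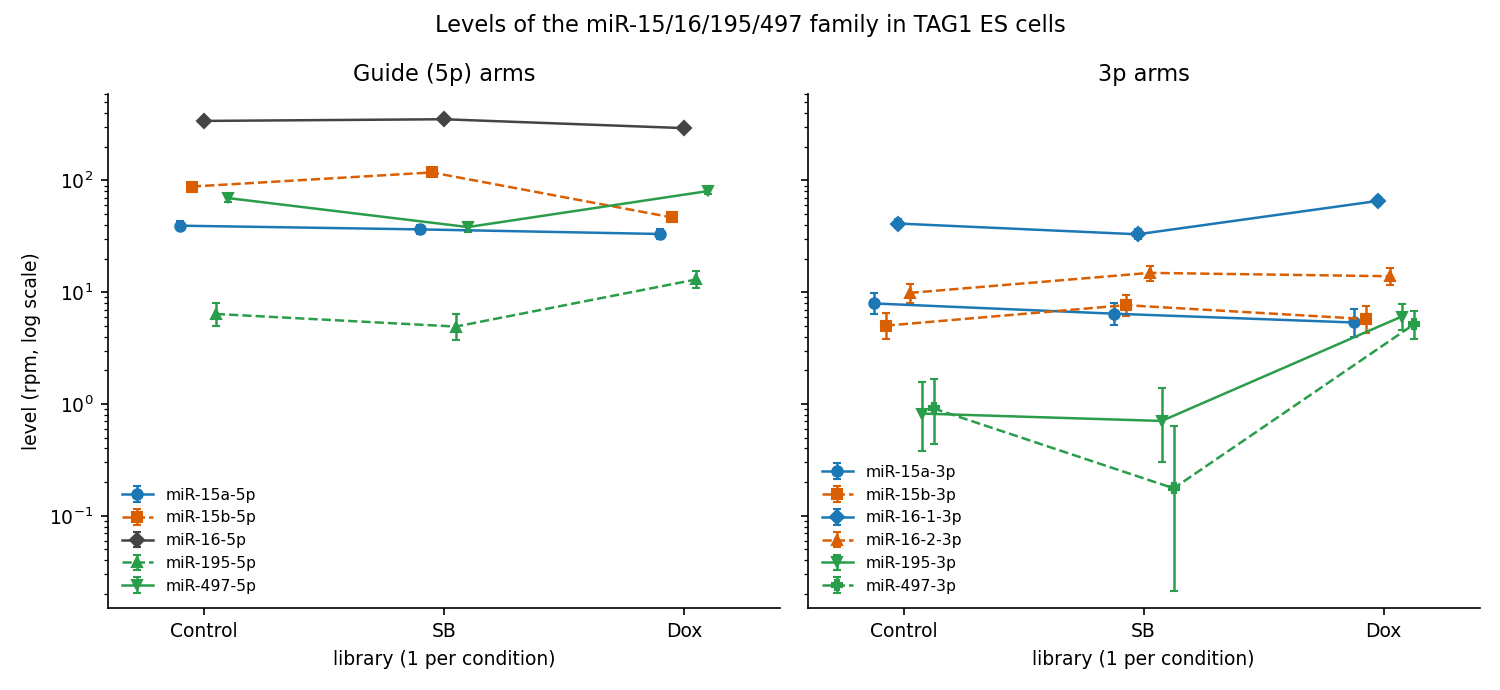
Level of each family member in rpm (log scale) in the Control, SB and Dox libraries, guide arms on the left and 3p arms on the right, coloured by locus (blue miR-15a/16-1, orange miR-15b/16-2, green miR-497 with miR-195, grey miR-16-5p from 2 loci). Bars are 95% Poisson intervals of 1 library each. miR-16-5p stays between 294 and 353 rpm, while miR-15b-5p and miR-497-5p cross between SB and Dox.

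miR-16-5p was the most abundant member in each library, with 341 rpm (331 to 352) in Control, 353 rpm (342 to 364) in SB and 294 rpm (284 to 305) in Dox. It ranked 94th, 85th and 106th of the 693 listed miRNAs in these libraries. Its log2 ratio was 0.05 (−0.02 to 0.11) for SB over Control and −0.26 (−0.33 to −0.19) for Dox over SB, short of the fold threshold in both. Against the median of all listed miRNAs these values became 0.24 and −0.64. The ratio of SB over Control changed sign with the scaling of the libraries, from −0.19 to 0.28 over 5 scalings, while miR-16-5p was called lower in Dox over SB under 3 of them (−0.73 to −0.62) and in Dox over Control under 4.

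miR-15a-5p, made next to miR-16-1, was likewise not called in any comparison with the authors' scaling. It had 39.4 rpm (35.8 to 43.3) in Control, 36.5 rpm (33.1 to 40.2) in SB and 33.2 rpm (29.8 to 37.0) in Dox, and all 3 intervals overlapped. The log2 ratio was −0.11 (−0.31 to 0.09) for SB over Control, a direction that flipped under other scalings, and −0.14 (−0.35 to 0.08) for Dox over SB. Scaled to miR-26a-5p, miR-15a-5p was called lower in SB over Control (−0.35). Under 3 of 5 scalings it was called lower in Dox over SB, with −0.60 to −0.52, and under 4 of 5 in Dox over Control. The other arm of this hairpin, miR-15a-3p, went from 7.94 rpm in Control to 6.43 rpm in SB and 5.36 rpm in Dox. It was called lower in Dox over Control, by −0.57 (−1.09 to −0.06) on the log2 scale, and under 3 of 5 scalings also in Dox over SB.

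miR-15b-5p was higher in SB and lower in Dox. Its level was 88.2 rpm (82.7 to 93.9) in Control, 118 rpm (112 to 125) in SB and 46.7 rpm (42.5 to 51.1) in Dox, 3 intervals that did not overlap. SB over Control gave a log2 ratio of 0.43 (0.31 to 0.55), a 1.34-fold higher level, and it stayed positive but was no longer called when the libraries were scaled to miR-26a-5p (0.18). Dox over SB gave −1.34 (−1.5 to −1.19), a 2.54-fold lower level, or −1.72 relative to the median of all listed miRNAs. In Dox over Control the level was also lower, by −0.92 (−1.08 to −0.76), and both calls of a lower level held under all 5 scalings.

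The 3p arms of the same locus were also higher in SB than in Control, and their Dox over SB ratios were nearer to 0. miR-15b-3p had 5.02 rpm in Control, 7.66 rpm in SB and 5.76 rpm in Dox, and was called higher in SB over Control with a log2 ratio of 0.61 (0.11 to 1.12), a call that was lost with scaling to miR-26a-5p (0.37). miR-16-2-3p, the arm that marks the miR-16 copy of this locus, had 9.86 rpm, 14.9 rpm and 13.9 rpm, and was also called higher in SB over Control, by 0.59 (0.24 to 0.96). For Dox over SB, neither was called with the authors' scaling, with −0.41 (−0.92 to 0.09) for miR-15b-3p and −0.09 (−0.43 to 0.24) for miR-16-2-3p. Both intervals lay above that of miR-15b-5p, though under 3 of 5 scalings both arms were called lower as well (−0.88 to −0.73 and −0.56 to −0.38). In Dox over Control miR-16-2-3p was called higher, by 0.50 (0.13 to 0.88), a call that held under 2 of 5 scalings. Summed over miR-15b-5p and these 3p arms, the locus rose by 0.45 (0.34 to 0.56) in SB over Control and fell by 1.09 in Dox over SB (−1.22 to −0.95).

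In SB over Control and in Dox over SB, markers of mesenchymal cells moved in the same directions as miR-15b-5p. All 8 of 8 miRNAs chosen as markers of fibroblasts and other mesenchymal cells were higher in SB than in Control and lower in Dox than in SB, and their summed level was 2261 rpm in Control, 5314 rpm in SB and 2888 rpm in Dox. None was at 0, and the lowest, miR-214-3p, had 16 reads in Control, 78 in SB and 1 in Dox. In Dox over Control their sum was higher, unlike miR-15b-5p, with miR-21-5p alone at 1160 rpm in Control and 2040 rpm in Dox. Other markers were lower there, such as miR-199a-3p with 547 rpm and 337 rpm. Markers of ES cells moved with miR-15b-5p in part, since 6 of 9 were higher in SB than in Control and 6 of 9 were lower in Dox than in SB. The part of either list in the miR-15b result was not tested, and in such bulk RNA fewer cells of a type and less RNA per cell cannot be told apart.

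miR-497-5p had the opposite order. It had 69.6 rpm (64.8 to 74.8) in Control, 38.3 rpm (34.8 to 42.1) in SB and 80.4 rpm (74.9 to 86.2) in Dox. The SB library was well below the others, while Control and Dox were close, with the upper bound of Control just under the lower bound of Dox. The log2 ratio was −0.86 (−1.04 to −0.69) for SB over Control, a 1.82-fold lower level, and 1.07 (0.90 to 1.24) for Dox over SB, a 2.10-fold higher level, and both calls held under all 5 scalings. Relative to the medians these ratios were −0.67 and 0.69. For Dox over Control the ratio was 0.21 (0.06 to 0.35), which was not called and whose direction flipped with the scaling (−0.09 to 0.21).

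miR-195-5p, a guide best known for cell cycle arrest in the postnatal heart, is encoded beside miR-497 and was much less abundant. It had 6.39 rpm (4.98 to 8.07) in Control, 4.93 rpm (3.73 to 6.40) in SB and 13.0 rpm (10.9 to 15.5) in Dox. Control and SB overlapped, and the ratio between them, −0.37 (−0.91 to 0.15), was called lower only with scaling to miR-26a-5p (−0.62). By contrast, Dox over SB was higher by 1.40 (0.94 to 1.88). In Dox over Control it was called higher too, with 1.03 (0.60 to 1.47), which differs from the result for miR-497-5p in the same comparison, with intervals that did not overlap.

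The 3p arms of this locus had at most 10 reads each in Control and SB. miR-195-3p had 9 reads in Control, 8 in SB and 60 in Dox, or 0.821 rpm, 0.705 rpm and 6.06 rpm, which gave a log2 ratio of 3.11 (2.04 to 4.38) for Dox over SB. miR-497-3p had 10 reads in Control, 2 in SB and 51 in Dox, or 0.913 rpm, 0.176 rpm and 5.15 rpm. It was called lower in SB over Control, with −2.37 (−5.60 to −0.14), a value that rests on those few reads. Its Dox over SB ratio was 4.87, and with 2 reads in SB the interval ran from 2.94 to 7.95. Against Control the 3p arms were higher in Dox by 2.88 (1.86 to 4.08) for miR-195-3p and 2.50 (1.5 to 3.64) for miR-497-3p. These sizes depend on the low levels: on the log2(rpm + 1) scale miR-195-3p had 2.05 for Dox over SB and 1.96 for Dox over Control. On that scale miR-497-3p had −0.70 for SB over Control, 2.39 for Dox over SB and 1.69 for Dox over Control. With all 4 arms summed, the locus fell by 0.82 in SB over Control (−0.98 to −0.66) and rose by 1.25 (1.09 to 1.40) in Dox over SB.

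Some marker lists had the same order of summed levels as this locus. The 9 ES cell markers summed to 70810 rpm in Control, 56410 rpm in SB and 78480 rpm in Dox, of which miR-290-5p alone held 35600 rpm, 18100 rpm and 37400 rpm, and 6 of the 9 were higher in SB than in Control. The 5 markers of muscle, neural and liver cells, none of them at 0, summed to 1786 rpm, 1636 rpm and 2353 rpm, nearly all of it miR-124-3p. Of these 5, 4 were higher in SB than in Control and 3 were lower in Dox than in SB, unlike the locus. The 3 blood cell markers, none of them at 0, summed to 28.9 rpm, 36.8 rpm and 77.7 rpm. The part of these lists in the miR-497 and miR-195 results was not tested.

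**Figure D2:**
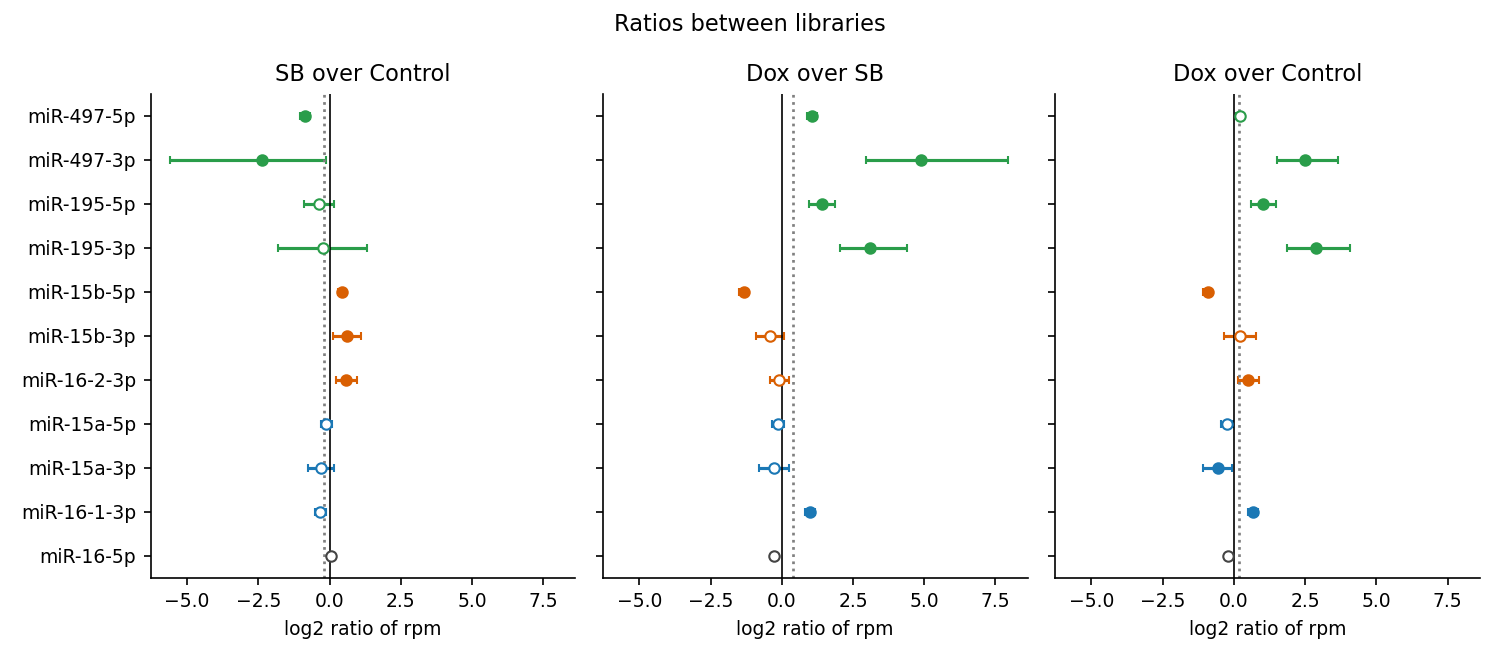
Log2 ratio of rpm for each member in the 3 comparisons, coloured by locus as in the plot of levels. Filled points were called and open points were not, bars are 95% Clopper-Pearson intervals for counting error, the solid line is 0 and the dotted line the median of all 693 listed miRNAs. For Dox over SB the 4 green arms lie above the dotted line and miR-15b-5p lies at −1.34.

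The remaining member, miR-16-1-3p, differed from miR-15a of the same locus. It had 41.2 rpm (37.5 to 45.1) in Control, 33.0 rpm (29.8 to 36.5) in SB and 65.6 rpm (60.6 to 70.8) in Dox. SB over Control gave −0.32 (−0.52 to −0.12), just short of the fold threshold and so not called, though it was called lower with scaling to miR-26a-5p (−0.56). Dox over SB gave 0.99 (0.80 to 1.18) and Dox over Control 0.67 (0.50 to 0.85), and both were called higher under all 5 scalings. In Dox, miR-16-1-3p was the third most abundant member and exceeded the guides miR-15b-5p and miR-15a-5p.

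In SB over Control, 3 of the 11 members were called higher, against 15.3% of all listed miRNAs, and 2 were called lower, against 30.2%. In Dox over SB, 5 members were called higher, against 41.7%, and 1 lower, against 17.9%. In Dox over Control, 5 were called higher, against 30.6%, and 2 lower, against 19.8%. These counts were not tested against the other listed miRNAs, and SB over Control and Dox over SB share the SB library, so their directions are not independent. The median log2 ratio of the 11 members was −0.22, −0.09 and 0.21 in the same order.

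Scaling the libraries in other ways changed how many members were called. When the reads on listed miRNAs were the scaling total, 6 members instead of 1 were called lower in Dox over SB. So were 218 instead of 124 of all 693 listed miRNAs. The share of higher calls among all called miRNAs in this comparison went from 70.0% to 42.8%. In SB over Control that share went from 33.7% to 53.4%, and in Dox over Control from 60.7% to 41.4%. Of the calls made, 6 of 6 in Dox over SB, 3 of 5 in SB over Control and 6 of 7 in Dox over Control held under all 5 scalings. Directions were the same under all of them for 11, 8 and 9 members, the exceptions being miR-15a-5p, miR-16-5p and miR-195-3p in SB over Control and miR-15b-3p and miR-497-5p in Dox over Control.

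**Figure D3:**
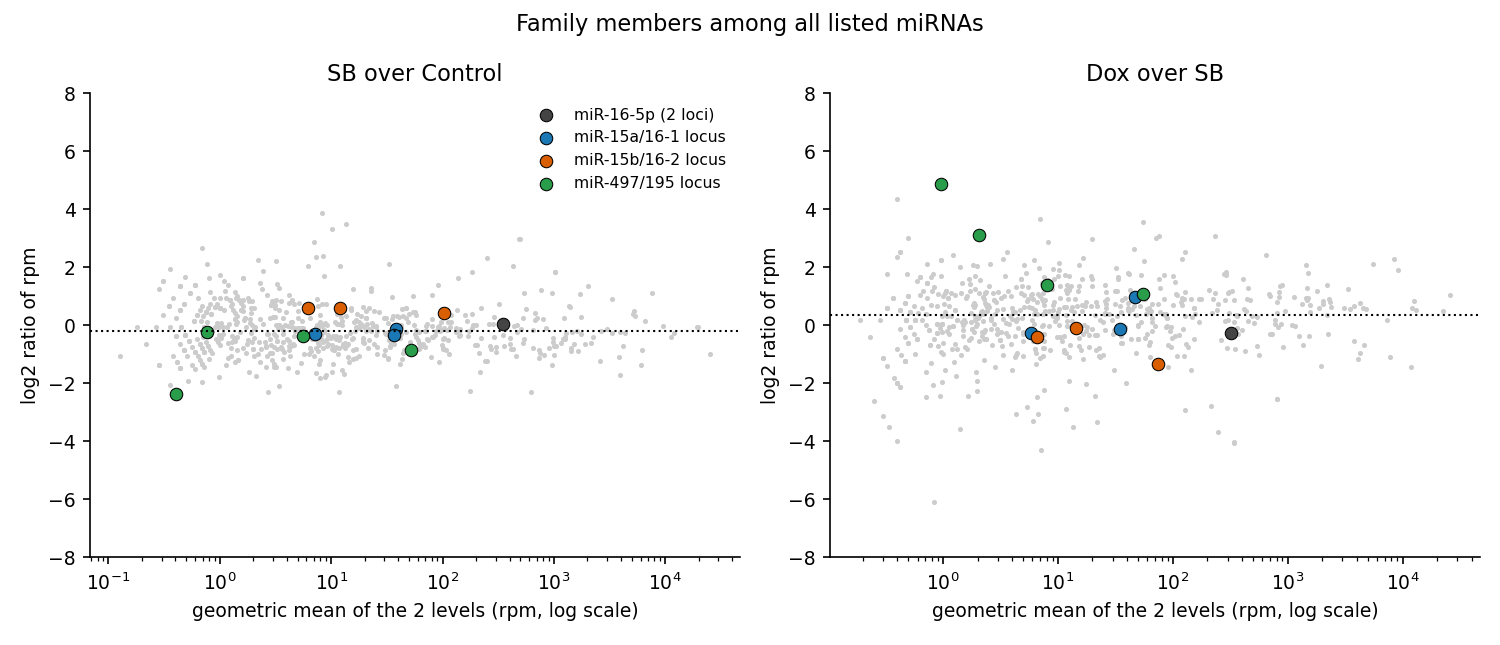
Log2 ratio of rpm against the geometric mean of the levels in both libraries (rpm, log scale) for all 693 listed miRNAs in grey and the 11 members in colour, with the median ratio as a dotted line. In SB over Control the orange points lie above the median. In Dox over SB miR-497-3p lies at 4.87, a ratio to 2 reads in SB that becomes 2.39 on the log2(rpm + 1) scale, and the guides of the 3 loci lie on both sides of the median.

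Shares within the guide arms do not depend on scaling. miR-16-5p held 62.6% (61.4 to 63.9) of guide reads in Control, 64.0% (62.8 to 65.2) in SB and 62.9% (61.5 to 64.3) in Dox, with overlapping intervals. miR-15a-5p was as even, at 7.23%, 6.63% and 7.11%. The difference lay in the other guides, since miR-15b-5p went from 16.2% (15.3 to 17.1) to 21.5% (20.5 to 22.5) and then 9.98% (9.13 to 10.9). miR-497-5p went from 12.8% (11.9 to 13.7) to 6.95% (6.33 to 7.61) and then 17.2% (16.1 to 18.3). miR-195-5p held 1.17%, 0.894% and 2.79%. miR-15b-5p therefore exceeded miR-497-5p in Control and SB, and miR-497-5p exceeded miR-15b-5p in Dox.

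**Figure D4:**
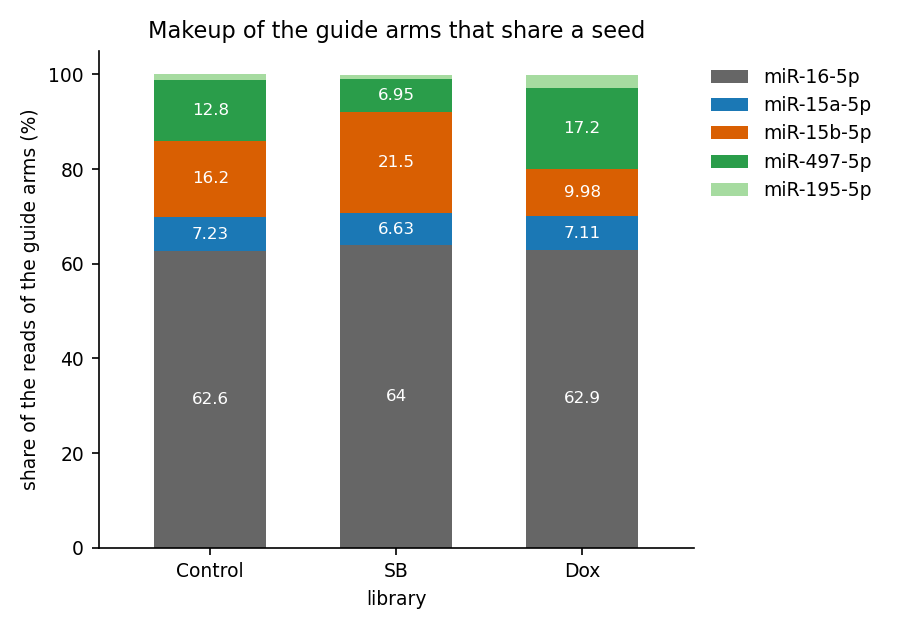
Share of each of the 5 guide arms in the reads of all 5, in percent, for the Control, SB and Dox libraries. The grey miR-16-5p segment is 62.6% to 64.0% in each, while the orange miR-15b-5p and green miR-497-5p segments exchange size between SB (21.5% and 6.95%) and Dox (9.98% and 17.2%).

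The 3p arm took a larger share of the reads in Dox for miR-15b, miR-195, miR-497 and the sum of both miR-16 hairpins, and not for miR-15a. The 3p share of miR-15b was 5.39% (4.08 to 6.95) in Control, 6.08% (4.89 to 7.44) in SB and 11% (8.42 to 14.0) in Dox. For miR-497 it was 1.29% (0.622 to 2.37), 0.458% (0.0555 to 1.64) and 6.02% (4.52 to 7.84). For miR-195 it was 11.4% (5.34 to 20.5), 12.5% (5.55 to 23.2) and 31.7% (25.2 to 38.9). In each of these hairpins Dox lay above Control and SB, and the intervals did not overlap. The sum over both miR-16 hairpins went from 13.0% (12.0 to 14.0) and 11.9% (11 to 12.9) to 21.3% (20.0 to 22.6). The 3p share of miR-15a was 16.8%, 15.0% and 13.9%, with overlapping intervals.

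Among other hairpins, a larger share of the less abundant arm in Dox than in SB was about as common as a smaller one. Of 176 other hairpins that had at least 100 reads over both arms in each library, 85 (48.3%) had a higher share of the less abundant arm in Dox than in SB. Held to the same minimum and to arms that pair by name, the family has 3 hairpins, of which miR-15b and miR-497 had a higher share in Dox than in SB and miR-15a had a lower one. miR-195 had too few reads and the miR-16 hairpins share their guide, so neither is in that count. Over the 176 other hairpins the median of that share was 9.44% in Control, 7.14% in SB and 9.50% in Dox. Some of them rose by more than miR-15b or miR-497 from SB to Dox, such as miR-23a, from 1.81% to 17.3%. This set was compared after the shares of the family had been seen, and the difference between the family and these hairpins was not tested.

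**Figure D5:**
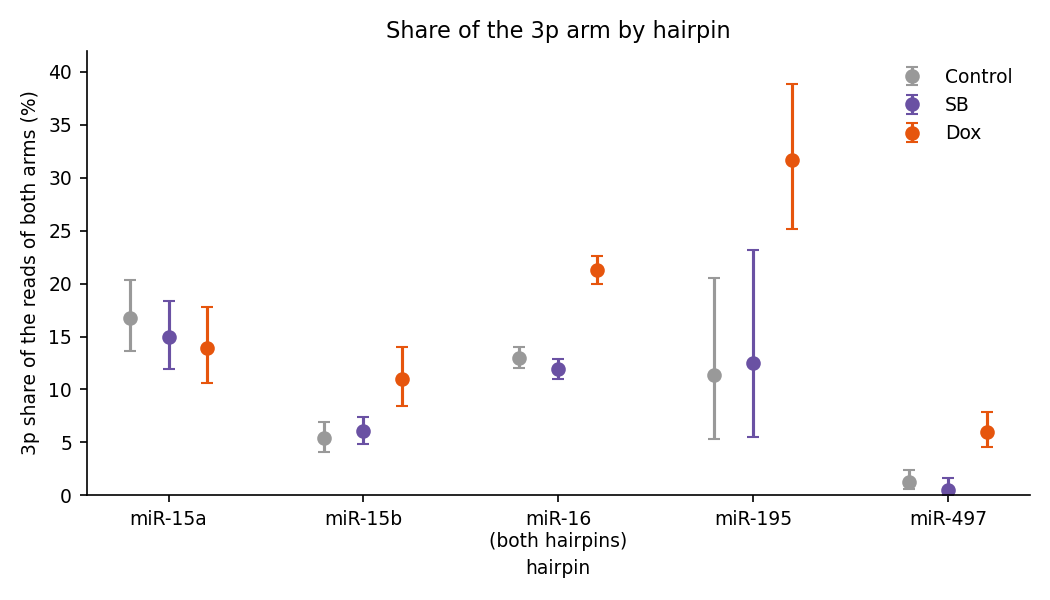
Share of the 3p arm in the reads of both arms, in percent, by hairpin and library, with 95% Clopper-Pearson intervals. The Dox points of miR-15b (11%), miR-16 (21.3%), miR-195 (31.7%) and miR-497 (6.02%) lie above their Control and SB points, while those of miR-15a overlap.

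Only the 3p arms of the miR-16 hairpins can be told apart by copy. miR-16-1-3p made up 80.7% (77.2 to 83.9) of the reads on both miR-16 3p arms in Control, 68.9% (64.9 to 72.8) in SB and 82.5% (79.6 to 85.1) in Dox. In SB a larger part of the 3p reads was thus miR-16-2-3p, which does not measure the output of either copy, since the 3p share of a hairpin can itself differ between libraries.

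Of the other miRNAs with this kind of seed, miR-322-5p carried the same bases 2 to 8, and miR-503-5p carried them up to base 7. Their sequences, with bases 2 to 8 in capitals, are shown because these are the nearest relatives of the family listed in the files.
miR-322-5p: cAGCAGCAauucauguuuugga
miR-503-5p: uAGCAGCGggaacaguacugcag
miR-322-5p had 15.3 rpm in Control, 16.5 rpm in SB and 8.49 rpm in Dox, below the 3p arm of its own hairpin in each library, and was called lower in Dox over SB by −0.96 (−1.35 to −0.58), on the side of miR-15b-5p. miR-503-5p, made from the same cluster on the X chromosome, had 393 rpm, 315 rpm and 402 rpm, above miR-16-5p in Control and Dox and below it in SB. With the authors' scaling miR-503-5p was called higher in Dox over SB by 0.35 (0.29 to 0.42), at the median of all listed miRNAs (−0.03 relative to it). The 3p arms of these hairpins, miR-322-3p with 161 to 185 rpm and miR-503-3p with 6 to 13 reads, were not called in any comparison with that scaling. Calls of these relatives under other scalings are not given. With both relatives added, miR-503-5p was the largest of the 7 arms in Control, with 41.2% (40.3 to 42.2), and in Dox, with 45.8% (44.7 to 46.8), and miR-16-5p in SB, with 40.0% (39.1 to 41.0).

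The listed miRNAs outside the family whose ratios lay closest to each guide were found over 291 miRNAs with at least 100 reads in each of the 3 libraries, by the distance over the log2 ratios of SB over Control and Dox over SB. Closest to miR-497-5p was miR-200c-3p, known for keeping epithelial identity, at a distance of 0.074 and with 132 rpm, 75.9 rpm and 156 rpm in Control, SB and Dox. The next was miR-3095-3p, at 0.106. Closest to miR-15b-5p were miR-292-3p of the ES cell miR-290 cluster, at 0.188 and with 4390 rpm, 6150 rpm and 2740 rpm, and miR-193-3p, at 0.248. For miR-16-5p they were miR-106a-5p, at 0.080, and miR-339-5p, at 0.084, and for miR-15a-5p they were miR-23b-3p, at 0.085, and miR-345-5p, at 0.110.

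Smads are known to bind the stem of some primary miRNAs at the bases CAGAC. This motif was in none of the 5 family hairpins in the RefSeq table (Mir16-1, Mir15b, Mir16-2, Mir195a and Mir497), and 7.96% of all 1005 mouse hairpins there held it. The hairpin sequence of Mir15a was missing there and was not searched. The reverse complement, GUCUG, occurred in Mir195a alone, and in 14.2% of all hairpins. A search of these letters describes the hairpins only.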

How the data were processed

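Short RNA of TAG1 ES cells was sequenced in 3 libraries, 1 per condition, with 2 sequencing runs pooled per library. The authors removed adaptors, kept reads longer than 16 bases, aligned them with Bowtie (version 0.12.7 in the submitters' processing notes) to miRBase release 18 without mismatches, and listed the miRNAs that reached 10 reads over the libraries. The deposited values are RPM, scaled by the authors to 1000000 reads of each library. Each of the 2079 values was a whole multiple (within 0.01 read) of the value of 1 read, which was 0.0913 rpm in Control, 0.0881 rpm in SB and 0.101 rpm in Dox, and this gave the reads behind each value. The scaling totals were calculated back from these steps and are not the numbers of sequenced reads.

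Ratios were taken from rpm without a pseudocount. Intervals at the 95% level were exact (Poisson for a level, Clopper-Pearson for shares and for ratios of reads), in Python 3.11.15 with numpy 2.4.6, pandas 2.3.3 and scipy 1.17.1. Figures were drawn with matplotlib 3.10.9. They cover counting error only, since the reads carry no molecular identifiers and can be PCR copies. The recovery of reads and the calls were tested on simulated data with counting error only. Such data cannot show how libraries of the same condition would differ. With 1 library per condition no p-value was computed. All members were named, with their seed relatives, the scaling reference miR-26a-5p, the markers beside results, and the nearest 2 miRNAs to each guide of at least 100 reads per library. Among the markers, miR-214-3p, miR-21-5p, miR-199a-3p, miR-290-5p and miR-124-3p were singled out after their values were seen, as was miR-23a among the other hairpins. The members and lists were chosen with earlier results of these data known. Positions are from GENCODE M21 and RefSeq on GRCm38. The 8 alternatives were 4 other scalings, a pseudocount of 1, fold thresholds of 1.5 and 2, and a minimum of 100 reads. Shares were also taken with the seed relatives added.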

Additional observations from a re-analysis of the deposited data

How the results depend on the processing

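No paired analysis was possible because each condition had 1 library and the labels give no shared replicate numbers. Leaving out a library was likewise not possible. Over single members, 133 of 165 values under the other scalings and the pseudocount kept their side of the criterion, of which 10 values of uncalled members changed sign or became 0, 27 passed it newly, 5 no longer passed it and 0 called members changed direction. Members called lower in Dox over SB numbered 6 with libraries scaled to listed reads, by median of ratios or by quantiles. Of all 693 listed miRNAs, 218, 201 and 176 were called lower under these scalings, against 124 with the authors' scaling. In Dox over Control 4 members were lower under all 4 other scalings, 1 at a fold of 1.5 and 0 at a fold of 2. Of all listed miRNAs, 202 were lower there with listed reads, 186 by median of ratios, 217 with miR-26a-5p and 168 by quantiles. The authors' scaling gave 137. In SB over Control, scaling to miR-26a-5p, which had 647 to 798 rpm, left 1 member higher and 6 lower, against 65 and 297 of all listed miRNAs. A fold of 2 left 0 members higher and 1 lower in SB over Control, and a minimum of 100 reads left 1 lower. At a fold of 2, 3 members were higher in Dox over Control, and a minimum of 100 reads left 3 higher there and 3 in Dox over SB. Calls over all listed miRNAs were not counted at these fold thresholds or with this minimum. The summed guides became lower by the criterion, at −0.71 for Dox over SB with listed reads, −0.62 by median of ratios and −0.59 by quantiles, and for Dox over Control at −0.46, −0.42 and −0.40 under the same scalings and −0.52 with miR-26a-5p. Adding miR-322-5p and miR-503-5p enlarges the total by construction. The shares of miR-15a-5p, miR-15b-5p, miR-16-5p, miR-195-5p and miR-497-5p then were 4.13%, 9.25%, 35.8%, 0.67% and 7.3% in Control, 4.14%, 13.4%, 40.0%, 0.559% and 4.34% in SB, and 3.79%, 5.32%, 33.5%, 1.48% and 9.16% in Dox. Over the scalings the median of all listed miRNAs ran from −0.44 to 0.04 in SB over Control and from −0.09 to 0.38 in Dox over SB, and higher calls made up 18% to 53.4% and 42.8% to 70.0% of all calls. Apart from these, the cause of each change was not tested. The 3p arms of miR-195 and miR-497, with 2 to 10 reads in Control and SB, are the members whose values depth limits most.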
